A study of Homo sapiens with 6 samples.

Results

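The 10 lncRNAs NEAT1, MALAT1, KCNQ1OT1, MEG3, H19, TUG1, MIAT, PVT1, LINC-PINT and HOTAIR were described in U251 cells, an established human glioma cell line, with and without sevoflurane (Sev), a volatile anesthetic. They were taken by symbol, each through 1 Ensembl identifier, and make up 10 of the 61496 features in the deposited tables. All cells were U251 grown in DMEM with FBS, and carried no transfection or genetic change by their labels. The control group held 3 libraries of untreated cells and the Sev group 3 libraries of cells given Sev gas for 2 h. The protocol in the labels lists concentrations from 1.7% to 5.1% and assigns none of them to a library, so a shared concentration of the 3 Sev libraries rests on the study's text and not on the labels. The labels do not say that replicates are separate cultures, and p-values then measure only the spread between these libraries. Total RNA was depleted of ribosomal RNA and read from strand-specific libraries, so that transcripts without a poly(A) tail could also be counted.

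The libraries held 38624292 to 46318311 counts. Markers of glial and glioma cells were present throughout, with 8 of 8 genes (VIM, NES, CD44, GFAP, S100B, SOX9, FABP7 and SOX2) between 4.26 and 1027 FPKM, a count scaled by gene length and library size. Their summed level was 1287 to 1500 FPKM in control and 1291 to 1403 in Sev, most of it from VIM (828.4 to 1027). Single markers varied more between the 6 libraries, S100B from 4.26 to 13.7, SOX2 from 51.9 to 101.6 and CD44 from 31.7 to 60.9 FPKM. The 6 defining genes of leukocytes, endothelium, epithelium, neurons, oligodendrocytes and hepatocytes lay between 0 and 0.613 FPKM, with PTPRC and EPCAM listed at 0 in at least 1 library. Their summed level was 0.664 to 0.866 FPKM in control and 0.586 to 0.655 in Sev.

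Several of these lncRNAs act in the nucleus. Full-length NEAT1 is the scaffold on which paraspeckles form, and MALAT1, encoded beside it, collects in nuclear speckles with splicing factors. KCNQ1OT1, H19 and MEG3 are imprinted transcripts, KCNQ1OT1 silencing neighbouring genes in cis, while HOTAIR and TUG1 have been described with Polycomb complexes and PVT1 shares a locus with the oncogene MYC.

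The 3′ ends of full-length NEAT1 and of MALAT1 are shown because each of these ends is made without ordinary polyadenylation, by RNase P cutting before a tRNA-like RNA. The counts of those small RNAs are given below. The last 110 bases of NEAT1 and the 110 bases of MALAT1 before that cut follow, from GENCODE 29 transcripts on GRCh38, both on the + strand, at chr11:65445431-65445540 and chr11:65506007-65506116, with runs of at least 5 A or T in capitals.
NEAT1: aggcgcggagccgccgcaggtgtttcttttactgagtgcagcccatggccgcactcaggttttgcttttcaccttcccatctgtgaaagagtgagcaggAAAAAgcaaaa
MALAT1: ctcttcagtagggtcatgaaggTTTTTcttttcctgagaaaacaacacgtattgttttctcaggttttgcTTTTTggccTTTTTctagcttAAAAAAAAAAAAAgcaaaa
Downstream of each lies the tRNA-like RNA, called menRNA for NEAT1 (chr11:65445541-65445598) and mascRNA for MALAT1 (chr11:65506117-65506173). Capitals mark the stretches of at least 6 bases that match when both are aligned from their longest common stretch, with each base used once, 17 bases in all.
menRNA: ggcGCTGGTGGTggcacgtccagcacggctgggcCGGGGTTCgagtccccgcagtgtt
mascRNA: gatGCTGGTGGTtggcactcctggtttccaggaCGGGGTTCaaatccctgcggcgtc

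The lncRNAs spanned a wide range of levels, which is shown in the plot of FPKM by library. On the FPKM scale, control cells held MALAT1 at 1181 ± 96.7 and NEAT1 at 508.9 ± 70.2 (SD, n = 3 here and throughout), followed by TUG1 at 10.9 ± 0.726. KCNQ1OT1 at 3.15 ± 0.40, PVT1 at 3.13 ± 0.333 and LINC-PINT at 2.42 ± 1.44 came next, then MEG3 at 1.23 ± 0.154 and MIAT at 0.713 ± 0.153. HOTAIR and H19 were at the lower end, with means of 0.0347 and 0.0141. Neighbours in this order whose control libraries overlapped were KCNQ1OT1 and PVT1, PVT1 and LINC-PINT, LINC-PINT and MEG3, and HOTAIR and H19. In Sev cells the order changed at KCNQ1OT1, which stood in place 6, after PVT1 and LINC-PINT, and at HOTAIR and H19, which changed places. The Sev libraries of LINC-PINT, at 0.948 to 4.88 FPKM, enclosed those of KCNQ1OT1, at 1.78 to 2.12, so this pair of places is not set apart by the libraries. The length that counts and FPKM together imply for PVT1 was 25149 to 25319 bases, 4.60 times the exons of GENCODE 29, and 1.19 times for MIAT, so the FPKM of both rest on a longer gene model than that release. For the other 6 lncRNAs with enough counts this ratio was at most 1.01.

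**Figure D1:**
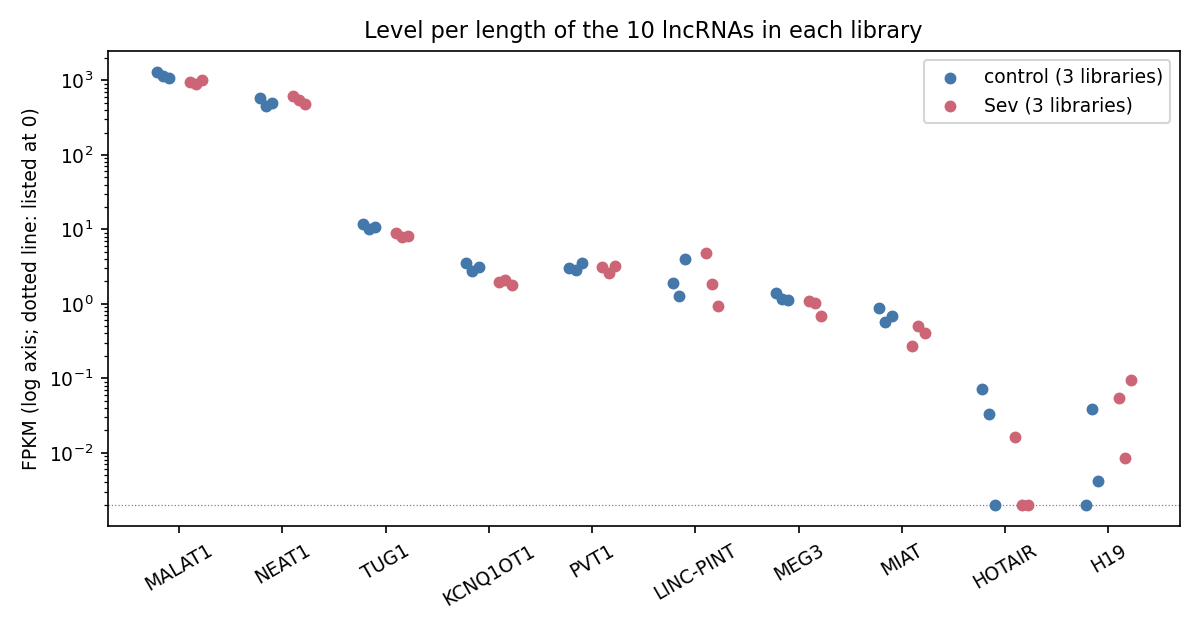
FPKM (log axis) of each lncRNA in the 3 control (blue) and 3 Sev (red) libraries, 1 point per library, ordered by the control mean. Points on the dotted line are listed at 0. MALAT1 averages 1181 and NEAT1 508.9 in control, and HOTAIR and H19 are under 0.1 in each library.

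Sev against control was tested with edgeR's quasi-likelihood test on the counts of all features, with Benjamini-Hochberg adjustment over the 27514 that passed its expression filter, and a feature was called at an adjusted p under 0.05. Of the 10 lncRNAs, 8 passed this filter and HOTAIR and H19 did not. KCNQ1OT1 and TUG1 were called lower, 2 of the 8, where 21.5% of all tested features and 21.6% of the 5713 tested features of lncRNA type were called lower. None of the 8 was called higher, where 22.1% of all tested features were, and DESeq2's Wald test also called 0 higher. At an unadjusted p under 0.05, 3 of the 8 passed (KCNQ1OT1, TUG1 and MIAT), all of them lower. Among all tested features, at least the 22.1% called higher and the 21.5% called lower pass this looser limit. Passing it therefore does not set these lncRNAs apart. The study's threshold, more than 1 in either direction on the log2 scale and p under 0.05 before adjustment, was passed by none of the 8 and by 23.5% of tested features. Their median log2 fold change was −0.20, against −0.0056 over all tested features and −0.11 over those of lncRNA type. The control and Sev libraries did not overlap for 4 of the 8, and for 56.5% of all tested features.

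**Figure D2:**
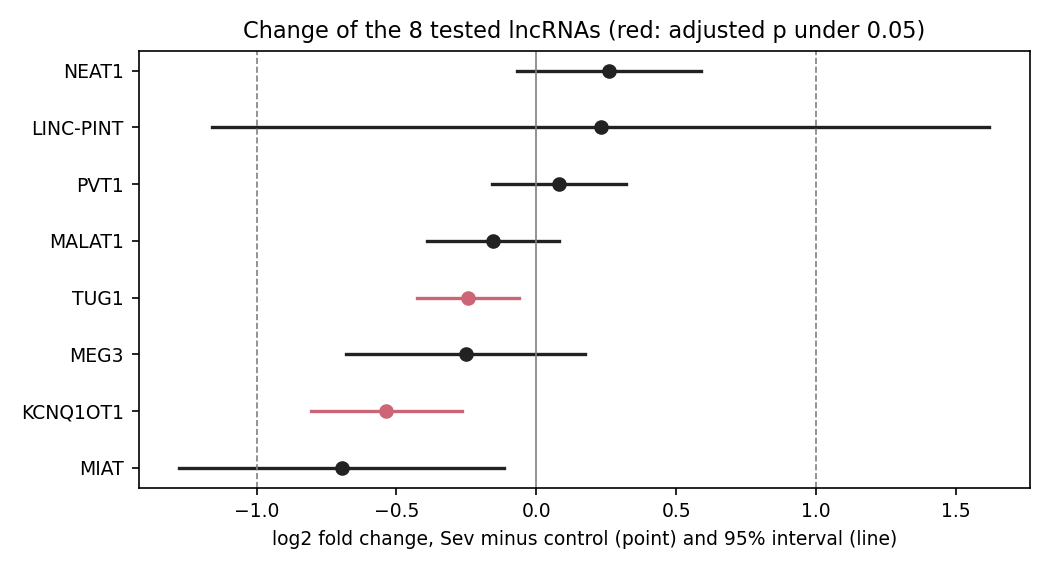
Log2 fold change of Sev over control (point) with its 95% interval (line) for the 8 tested lncRNAs, from edgeR with n = 3 per group, and the study's limits of −1 and 1 dashed. KCNQ1OT1 and TUG1 (red) had an adjusted p under 0.05. The interval of LINC-PINT runs from −1.16 to 1.62.

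Changes depended in part on how libraries were scaled, since scaling by library size alone moved the median of all tested features to −0.15, with 4665 higher and 7502 lower instead of 6094 and 5920. The counts of gene lists given below for library size alone stand against these 4665 and 7502 of 27514 tested features. By library size alone, 4 lncRNAs were called lower, MALAT1 (−0.30, adjusted p 0.0307) and MIAT (−0.85, adjusted p 0.0268) in addition. Relative to the shifted median the 8 differences changed little, NEAT1 being at 0.26, MALAT1 at −0.15, KCNQ1OT1 at −0.54 and MIAT at −0.70.

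NEAT1 is encoded on chromosome 11 (65422774 to 65445540, + strand, GENCODE 29 on GRCh38 for this and all following positions) and was the feature with the most counts in 2 of the 3 control libraries. Its normalised level, in CPM (counts scaled to library size, with TMM factors), was 15360, 12240 and 13270 in the control libraries and 18360, 16690 and 13890 in the Sev libraries. The lowest Sev library lay below the highest control library. The means were 13620 ± 1592 in control and 16320 ± 2257 in Sev, a log2 fold change of 0.26 (SE 0.14, 95% interval −0.069 to 0.59) with an adjusted p of 0.175 by edgeR, and 0.17 without Sev 1. NEAT1 took 1.26% to 1.65% of all counts in control and 1.37% to 1.75% in Sev. These counts are per gene and do not tell shorter and full-length transcripts of NEAT1 apart. A small RNA feature annotated inside NEAT1, ENSG00000278050, had 5884 counts in Sev 1 and 1 in each other library, named here after its values were seen.

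MALAT1 begins 52148 bases beyond the end of NEAT1, on the same strand (chromosome 11, 65497688 to 65506516). Its CPM was 13070, 12340 and 11410 in control and 11100, 10590 and 11380 in Sev. Every Sev library lay under every control library, the closest pair being almost level. On the log2 scale the fold change was −0.16 (SE 0.10, interval −0.39 to 0.080), with an adjusted p of 0.250 by edgeR. NEAT1 and MALAT1 together held 2.52% to 3.05% of all counts in control and 2.49% to 2.80% in Sev.

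Within a library the ratio of 2 counts does not depend on scaling. The ratio of NEAT1 to MALAT1 counts was 1.18, 0.992 and 1.16 in control and 1.65, 1.58 and 1.22 in Sev. The ranges did not overlap, with a mean difference of 0.41 on the log2 scale. The exact permutation test of 3 libraries against 3, two-sided, gave p = 0.1, the smallest it allows, and 0.15 after adjustment over the 6 ratios examined for these lncRNAs. Those 6 include PVT1/MYC, MEG3/MEG8 and KCNQ1OT1/PHLDA2, whose partners were chosen with their values known and whose p was also 0.1. The 0.15 rests on them and is lower than a sound adjustment would give.

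The tRNA-like menRNA, whose sequence is printed above, starts 1 base after the end of NEAT1 and was counted as a feature of its own (ENSG00000275948). Its counts were 52, 34 and 66 in control and 18, 11 and 18 in Sev. Each Sev library was below each control library, and the log2 fold change of this feature was −1.49 (SE 0.32, adjusted p 0.00701 by edgeR). The feature is 58 bases long, shorter than the average fragment in the study's methods. Reads from the released small RNA and from longer transcripts across it cannot be told apart here. MALAT1's mascRNA feature, which lies inside the MALAT1 gene model, had 1 count in every library and gives no comparison. The menRNA was named after its values were seen.

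Of 27 proteins that build paraspeckles, 13 were called higher, 3 lower and 11 not called, with a median log2 fold change of 0.26. These are 48.1% higher and 11.1% lower, where 22.1% and 21.5% of all tested features were called. SFPQ, which binds NEAT1 and is needed for paraspeckles, rose from 388.8 ± 18.7 to 638.1 ± 21.1 CPM (0.71, SE 0.077, adjusted p 4.25e-04). PSPC1, its paralog, rose by 0.53 (adjusted p 0.00482), while NONO, the third paralog, stood at 0.36 and missed the threshold (adjusted p 0.127), all by edgeR. NONO was at 0.12 without Sev 2. RUNX3, a transcription factor with at most 3 counts per control library, had 30 to 37 in Sev. Over the group totals this is 11.8-fold higher with each control library set to a floor of 3 counts, which is not a bound for single libraries. SS18L1 fell by 0.61 and ZC3H6 by 0.83. Scaling by library size alone gave 9 higher and 5 lower with a median of 0.12, still above 0.

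Proteins of nuclear speckles, the bodies in which MALAT1 collects, gave 17 of 34 higher, where 22.1% of all tested features were, 5 lower (14.7%, against 21.5%) and 12 not called, with a median of 0.27 (14 and 6, with 0.13, by library size alone). The splicing factors RBM25 and RBM39 rose by 0.79 and 0.72. SON, which holds speckles together, rose by 0.41 (adjusted p 0.00561), and SRRM2, the other speckle core protein, was at 0.27 and missed the threshold (adjusted p 0.0878, edgeR; 0.15 without control 3). The SR protein kinases CLK2 and CLK3 fell, CLK2 from 78.2 ± 5.27 to 33.9 ± 2.86 CPM (−1.21) and CLK3 by 0.40.

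KCNQ1OT1 is transcribed from the − strand inside KCNQ1 on chromosome 11 (2608328 to 2699994) and is normally read from the paternal allele. It is the lncRNA with the smallest adjusted p of the 8 tested.

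KCNQ1OT1 was at 376.6, 304.3 and 338.9 CPM in control and 236.0, 261.6 and 205.1 CPM in Sev. All 3 Sev libraries were below all 3 control libraries, as the plot of CPM by library shows. The means were 339.9 ± 36.2 and 234.2 ± 28.3, and the log2 fold change was −0.54 (SE 0.12, interval −0.81 to −0.27, adjusted p 0.00778 by edgeR), a ratio of 0.689. Ranked by raw count among all features it held places 261 to 384 in control and 658 to 861 in Sev. In RNA from whole cultures, less KCNQ1OT1 per cell and fewer cells with it cannot be told apart.

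**Figure D3:**
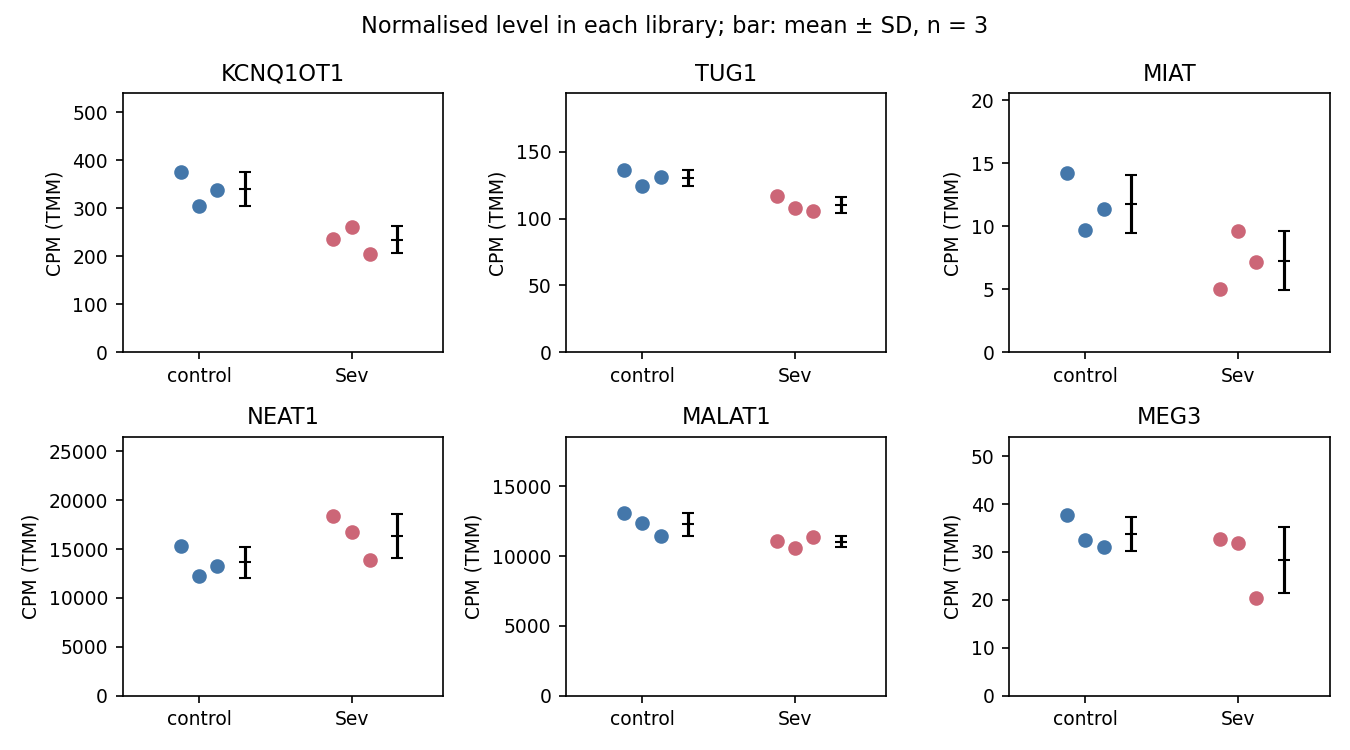
Normalised level (CPM with TMM scaling, axes from 0) of 6 lncRNAs in each control (blue) and Sev (red) library, with the mean ± SD of 3 libraries beside the points. The groups are apart for KCNQ1OT1, TUG1, MIAT and, by a narrow gap, MALAT1, and overlap for NEAT1 and MEG3.

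Of 4 tested genes listed for the domain around KCNQ1OT1, 1 was called, where 22.1% of all tested features were called higher and 21.5% lower. PHLDA2, an imprinted growth-restraining gene of that domain, rose from 7.01 ± 1.12 to 14.7 ± 1.97 CPM (1.07, adjusted p 0.00182), and CDKN1C, an imprinted cell-cycle inhibitor, was at 0.57 and missed the threshold (adjusted p 0.154, edgeR). SLC22A18, a transporter gene, was at −0.18 and NAP1L4, a histone chaperone gene, at −0.21, and neither was called (adjusted p 0.291 and 0.215). KCNQ1, the channel gene that surrounds KCNQ1OT1 on the other strand, had 4 to 7 counts per library and was not tested. The ratio of KCNQ1OT1 to PHLDA2 counts was 63.7, 37.3 and 48.7 in control and 18.5, 15.6 and 14.0 in Sev. The mean difference was −1.62 on the log2 scale. PHLDA2 was chosen as the called gene of the domain, so this ratio restates both calls and is given only as a description. Its permutation p enters the adjustment over the 6 ratios and is not used as support.

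MEG3, a maternally expressed RNA on chromosome 14 (100779410 to 100861031, + strand), was at 37.7, 32.5 and 30.9 CPM in control and 32.8, 31.8 and 20.3 in Sev. The groups overlapped and Sev 3 was the lowest. Its log2 fold change was −0.25 (SE 0.18, interval −0.68 to 0.17, adjusted p 0.300 by edgeR), and −0.059 without Sev 3. MEG8, further along the same imprinted cluster, rose from 7.68 ± 1.21 to 12.8 ± 1.53 CPM (0.74, adjusted p 0.00776), a call that held in 12 of 13 other settings. MEG9, which had few counts, rose by 1.10 (adjusted p 0.0424), a call lost in 9 of 13 other settings. The ratio of MEG3 to MEG8 counts was 5.44, 4.62 and 3.41 in control and 2.49, 2.24 and 1.82 in Sev. It was lower in each Sev library than in each control library (−1.03 on the log2 scale), given only as a description since MEG8 was chosen with its values known.

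H19, the maternally expressed RNA next to IGF2 on chromosome 11 (1995176 to 2001470, − strand), was almost silent. It had 0, 6 and 1 counts in control and 9, 2 and 14 in Sev, and the groups overlapped. Without the expression filter its adjusted p was 0.270 by edgeR and 0.305 by DESeq2. The library at 0 allows up to 0.0762 CPM, before TMM scaling. IGF2, its reciprocally imprinted neighbour, had at most 7 counts.

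TUG1 is a widely expressed lncRNA on chromosome 22 (30969245 to 30979395, + strand) that starts 947 bases from MORC2, which is read the other way. It is the other lncRNA called lower and the only one of the called pair with a RefSeq promoter entry. The window from 250 bases before to 50 after its start (RefSeq, GRCh38.p14, chr22:30969015-30969314, + strand) follows, with CCAAT (2 matches, either strand) and the E-box CACGTG (1 match) in capitals.
TUG1: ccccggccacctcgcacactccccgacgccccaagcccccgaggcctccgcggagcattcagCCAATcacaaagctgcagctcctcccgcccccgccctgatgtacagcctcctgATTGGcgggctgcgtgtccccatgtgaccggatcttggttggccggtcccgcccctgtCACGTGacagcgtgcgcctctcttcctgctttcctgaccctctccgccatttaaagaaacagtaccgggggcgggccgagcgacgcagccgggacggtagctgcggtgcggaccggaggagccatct
Among 35116 such windows, CCAAT was found in 34.6% and CACGTG in 7.26%. The motifs CRE (TGACGTCA), AP-1 (TGANTCA), CARE (TGATGNAA) and TATAAA, searched on both strands, had no match in it and were found in 1.85%, 7.71%, 3.62% and 11.5% of windows. LINC-PINT, H19, MALAT1, MEG3 and MIAT also had entries. The MEG3 windows held 1 CRE, 1 CCAAT and 1 TATAAA, 1 of the LINC-PINT windows held 2 AP-1, 1 E-box and 1 CCAAT, 1 of the MALAT1 windows held 1 TATAAA, and those of H19 and MIAT held none of the 6 motifs.

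TUG1 was at 136.6, 124.5 and 131.1 CPM in control and 116.9, 108.3 and 105.7 CPM in Sev. The groups did not overlap, and TUG1 had a small spread between libraries, with coefficients of variation of 4.64% and 5.29%. Sev differed from control by −0.24 on the log2 scale (SE 0.078, interval −0.43 to −0.064) with an adjusted p of 0.0365 by edgeR. The difference was −0.39 by library size alone, and the call held in 7 of 15 other settings and in only 1 of the 6 that left out 1 library (adjusted p 0.0434 to 0.102). It was lost without control 1, control 3, Sev 1, Sev 2 or Sev 3. MORC2, from the shared promoter region, was at 0.020 (adjusted p 0.891), and turned to −0.12 by library size alone. The ratio of TUG1 to MORC2 counts overlapped between groups (difference −0.26, exact permutation p = 0.2, adjusted 0.24 over the same 6 ratios, with the same limit).

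MIAT, first described with myocardial infarction and found in nuclear domains of neurons, lies on chromosome 22 (26646428 to 26676475, + strand). Its CPM was 14.2, 9.72 and 11.4 in control and 4.99, 9.66 and 7.14 in Sev. The groups met without overlapping, control 2 and Sev 2 being almost level. The log2 fold change of −0.70 (SE 0.25, interval −1.28 to −0.12) was the largest in size of the 8, and missed the threshold with an adjusted p of 0.0547 by edgeR. Leaving out each library gave −0.95 (without Sev 2) to −0.49 (without Sev 1) with adjusted p from 0.0170 to 0.165, and a call in 1 of the 6 fits, that without Sev 2.

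MIATNB, a lncRNA that overlaps MIAT on the same strand, fell from 6.59 ± 0.478 to 2.67 ± 0.103 CPM (−1.30, adjusted p 5.04e-04). Counting could split reads between both genes. Summed, they had 890, 658 and 846 counts in control and 290, 466 and 384 in Sev, and the sum was called lower (−0.89, SE 0.19, adjusted p 0.00728 by edgeR), an alternative chosen after seeing the data. The share of MIAT in the sum was 58.5% to 67.5% in control and 64.8% to 77.9% in Sev.

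**Figure D4:**
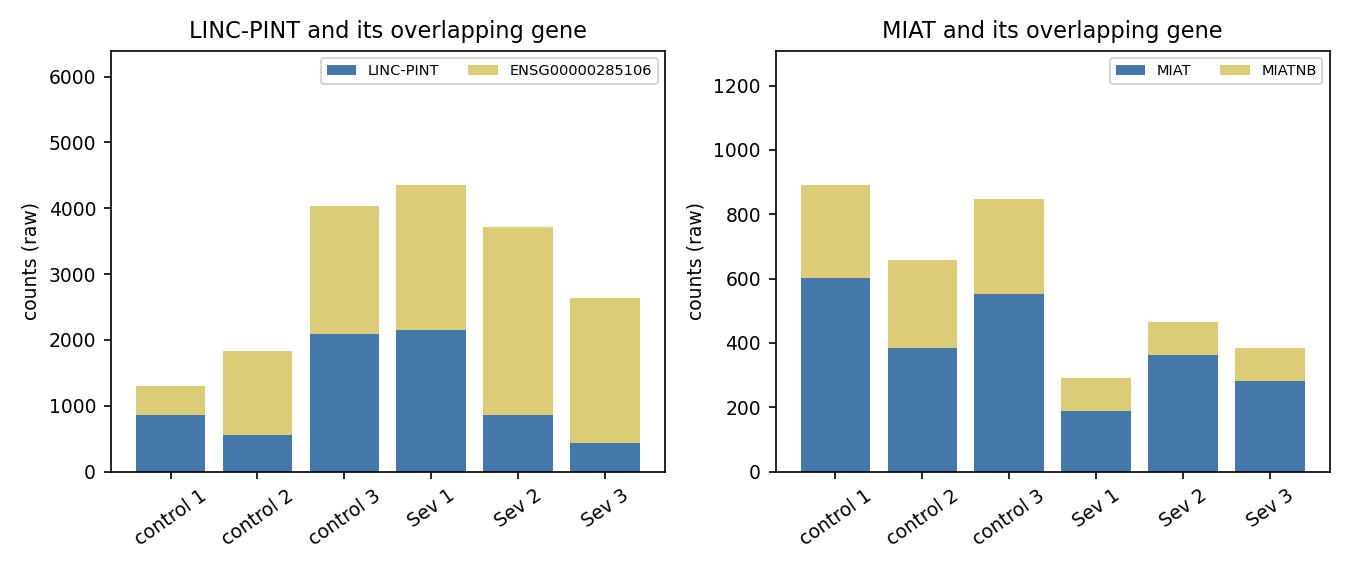
Raw counts of LINC-PINT with ENSG00000285106 and of MIAT with MIATNB, stacked per library. The MIAT sum is lower in each Sev library than in each control library, and the LINC-PINT part of its sum ranges from 16.3% to 65.6%.

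LINC-PINT, a p53-induced RNA on chromosome 7 (130938963 to 131110176, − strand), varied most between libraries of 1 group among the 8 tested lncRNAs. Its CPM was 20.2, 14.1 and 43.1 in control and 57.3, 22.7 and 10.9 in Sev. The Sev libraries held both its highest and its lowest level, a span of 5.25 times, against 3.07 times in control. Its log2 fold change was 0.23 (SE 0.60, interval −1.16 to 1.62, adjusted p 0.783 by edgeR), and it turned to −0.62 without Sev 1. Among 2973 tested features with a mean of 20 to 40 CPM the median SE was 0.12, and 10 had a larger SE than LINC-PINT.

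ENSG00000285106 spans LINC-PINT on the same strand and had 448, 1276 and 1940 counts in control and 2191, 2866 and 2212 in Sev. It was called higher (1.20, SE 0.41, adjusted p 0.0461), a call lost in 9 of 15 other settings. LINC-PINT made up 65.6%, 30.4% and 51.9% of the counts of both in control and 49.6%, 22.9% and 16.3% in Sev, so that the division of reads between them differed among replicates. The sum, another alternative chosen after seeing the data, was higher by 0.81 (SE 0.35) without reaching the threshold (adjusted p 0.0939 by edgeR). MKLN1, whose gene overlaps LINC-PINT from the other strand, was at 0.43 (adjusted p 0.145), and 0.18 without control 3. ENSG00000273319, which also overlaps LINC-PINT from the other strand, and LINC00513, 10314 bases away, were called higher by 0.54 (adjusted p 0.00978) and 0.39 (adjusted p 0.0162), and are named after their values were seen.

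PVT1 lies downstream of MYC on chromosome 8 (127794533 to 128101253, + strand). Its CPM was 88.0, 86.5 and 103.9 in control and 102.8, 88.8 and 102.9 in Sev. The 2 groups covered nearly the same range. With a log2 fold change of 0.081 (SE 0.10, interval −0.16 to 0.32, adjusted p 0.556 by edgeR), the difference was small, and its sign turned by library size alone (−0.058) and on the FPKM scale. MYC rose from 34.5 ± 11.8 to 107.9 ± 47.4 CPM (1.65, SE 0.39, adjusted p 0.0110), a call that held in 14 of 15 other settings. The ratio of PVT1 to MYC counts was 2.30, 4.08 and 2.37 in control and 0.765, 0.653 and 1.94 in Sev, lower in each Sev library (−1.51 on the log2 scale), also given only as a description. LINC02912, inside PVT1 on the other strand and named after its values were seen, fell by 0.54 (adjusted p 0.00582). GENCODE 29 calls it TMEM75, the name under which it was listed among the neighbours, and it is not in their counts.

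**Figure D5:**
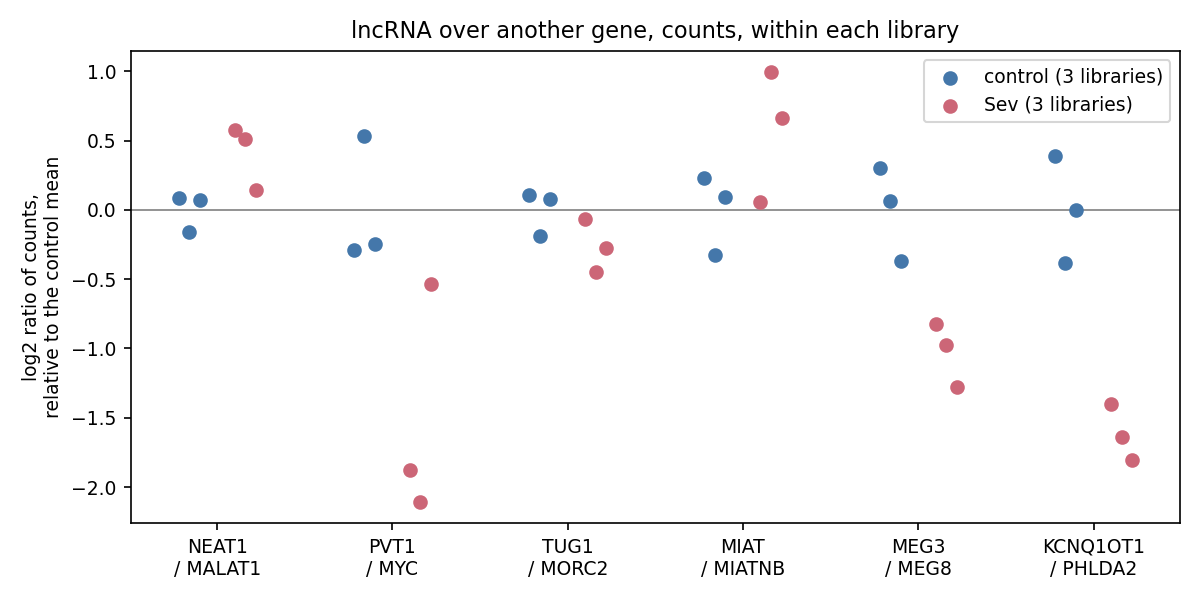
Log2 ratio of the counts of a lncRNA to those of another gene in each library, set to 0 at the control mean, for 3 control (blue) and 3 Sev (red) libraries. The ranges are apart for NEAT1/MALAT1 (higher in Sev) and for PVT1/MYC, MEG3/MEG8 and KCNQ1OT1/PHLDA2 (lower in Sev), the latter with partners chosen with their values known.

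HOTAIR, read from the HOXC cluster on chromosome 12 (53962308 to 53974956, − strand), had 9, 5 and 0 counts in control and 3, 0 and 0 in Sev. At 14 counts against 3 in all, a difference was not detectable at this depth (adjusted p without the filter 0.392 by edgeR and 0.505 by DESeq2). The libraries at 0 allow up to 0.0648 to 0.0747 CPM on the same scale. Its neighbour HOXC13 was called higher by 0.72 (adjusted p 0.0325), a call lost in 10 of 15 other settings, and was at 0.48 without Sev 2.

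Chromatin regulators that have been described with these lncRNAs gave 4 higher (13.8%), 7 lower (24.1%) and 18 not called among 29, where 22.1% and 21.5% of all tested features were called, with a median of 0.066 that turned to −0.074 by library size alone (1 higher and 10 lower). EZH2, the methyltransferase of Polycomb repressive complex 2 described with HOTAIR, KCNQ1OT1 and MEG3, fell by 0.47 (adjusted p 0.00313). Its paralog EZH1 fell from 49.8 ± 1.84 to 19.8 ± 0.571 CPM (−1.33) and CBX7, which binds the histone methylation that EZH2 places, by 1.89. JARID2, a cofactor of the same complex, rose by 0.55 and the DNA methyltransferase DNMT1 by 0.35, the latter call being lost in 8 of 15 other settings.

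Of 22 tested factors that bind or mature such RNAs, 7 were higher (31.8%), 4 lower (18.2%) and 11 not called (median 0.13, turning to −0.018 by library size alone, with 5 each way). KHSRP, an RNA decay factor, rose by 0.87 and DGCR8, of the microRNA-processing complex, by 0.57. Its partner DROSHA fell by 0.35 and METTL3, the m6A methyltransferase, by 0.67. Genes close to the 10 loci gave 7 higher, 3 lower and 20 not called among 30 tested, or 23.3% higher against 22.1% of all tested features and 10.0% lower against 21.5% (median 0.24; 5 higher and 6 lower by library size alone). Others of these that were called were ZNRD2 (0.56) near MALAT1, SMTN (−0.52) near TUG1 and MEST (−0.34) near LINC-PINT.

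The 10 lncRNAs can be set beside 37 tested lncRNAs of another list of long-studied names, of which 5 (13.5%) were higher, 15 (40.5%) lower and 17 not called, where 22.1% of all tested features were higher and 21.6% of those of lncRNA type lower, with a median of −0.14 that stayed below 0 under each scaling. Of the 37, 5 passed the study's fold threshold upwards (including LINC-ROR, which was not called) and 11 downwards, where 23.5% of all tested features passed it in either direction. CYTOR rose from 107.7 ± 10.7 to 368.0 ± 7.94 CPM (1.77) and TINCR by 2.21, while SOX2-OT fell from 509.8 ± 31.5 to 134.8 ± 17.1 CPM (−1.92) and MIR99AHG by 1.65, with adjusted p from 4e-05 to 1.66e-04 by edgeR.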

How the data were processed

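The authors sequenced rRNA-depleted, strand-specific libraries of U251 cells, 3 control and 3 Sev, grouped here by their labels. They deposited raw counts per gene without normalization and, for the same features, FPKM values. The submitters' processing notes name bcl2fastq 2.19, featureCounts and hg18 without roles. The aligner, annotation and strand setting are not given in the sources used here. Symbols were joined for 42005 of 61496 identifiers, and positions for 58457 from GENCODE 29 on GRCh38. Annotated lncRNAs opposite to MALAT1, TUG1 and MEG3 held 0 counts in every library.

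Counts were tested in R 4.3.3 with edgeR 4.0.16 (filterByExpr, TMM, glmQLFit, glmQLFTest, no covariate) and Benjamini-Hochberg adjustment over all tested features at 0.05. Adjusted p-values are from edgeR unless another tool is named. Standard errors are the absolute log2 fold change over the square root of F. CPM holds no prior count. Ratios were tested by the exact permutation test in scipy 1.17.1. Replicates of a group differed beyond sampling noise in 50.5% to 68.0% of 13668 genes. Depth limits only features with few counts, and the floor of 3 counts covers counting error only.

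Other settings tried were scaling by DESeq2 1.42.0 size factors or library size alone, its Wald test, no filter or 10 counts as a minimum in all libraries, a replicate block, leaving out each library, and limma 3.58.1 on log2(FPKM + 1), filtered (0.5 FPKM or more in 3 libraries) or not, and on filtered log2(FPKM + 0.1).

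The 10 lncRNAs and the 6 gene lists, written from general knowledge, were chosen with earlier results of these data known. Named genes were the 10 lncRNAs, from each list the 2 called genes of smallest p-value per direction, SFPQ, NONO, PSPC1, SON, SRRM2, EZH2 and called neighbours of a lncRNA. MORC2, CDKN1C, MKLN1, KCNQ1, IGF2, ENSG00000285106 and features said to be so were chosen after their values were seen. SSSCA1, TALAM1, TMEM75 and LINC01578 matched no symbol in the symbol table and are in no list count, although GENCODE 29 gives TMEM75 as the name of LINC02912. The result for 1 called neighbour and 1 sequence are not reported here.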

Additional observations from a re-analysis of the deposited data

How the results depend on the processing

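KCNQ1OT1 was called lower in each of the 15 alternatives (−0.69 to −0.45), and NEAT1, PVT1, LINC-PINT and MEG3 in none. The number of lncRNAs called lower was 4 by library size alone, 1 without the expression filter and 1 to 2 when each library was left out. MIAT was called in 4 of 16 alternatives (by DESeq2's Wald test, by library size, without Sev replicate 2 and summed with MIATNB) and MALAT1 in 1, by library size. DESeq2's Wald test called KCNQ1OT1 and MIAT but not TUG1. None was called higher or passed the fold threshold in any alternative.

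The log2 fold change of PVT1 turned to −0.058 by library size, to −0.047 on log2(FPKM + 1) with and without the filter, and to −0.060 on log2(FPKM + 0.1). The log2 fold change of LINC-PINT turned to −0.014, −0.014 and −0.061 in these FPKM settings, to −0.073 when control replicate 2 was left out and to −0.62 when Sev replicate 1 was (range over such fits −0.62 to 0.82). The log2 fold change of MORC2 turned to −0.12 by library size, −0.11 on log2(FPKM + 1) with and without the filter, −0.13 on log2(FPKM + 0.1), and −0.010, −0.024 and −0.063 without control 1, control 3 and Sev 2 (range −0.063 to 0.077). Over the 6 lists, 53 genes were called higher and 37 lower, 38 and 49 by library size, and 31 and 41 on unfiltered log2(FPKM + 1). When each library was left out these were 39 to 49 and 30 to 36. All tested features moved the same way, with 6094 higher and 5920 lower of 27514, 4665 and 7502 of 27514 by library size, and 4542 and 6814 of 47106 on unfiltered log2(FPKM + 1). The cause of these differences was not tested.

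With the replicate number as a block, the lncRNAs called lower went from 2 to 1 and all calls from 12014 to 10249. Deviations of libraries with the same number correlated at −0.059, 0.015 and 0.069, and control 1 correlated best with Sev 2, so no pairing by number was seen. A shared culture day or batch was not tested.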

Other observations

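Near HOTAIR, which had too few counts to test, some features of the HOXC cluster were called lower and HOXC13 was called higher (0.72, adjusted p 0.0325 by edgeR). HOXC6, a homeobox transcription factor, fell from 11.1 ± 1.25 to 3.29 ± 0.316 CPM (log2 fold change −1.75, adjusted p 2.02e-04). HOXC9 fell by 0.80 (adjusted p 0.0333) and the antisense transcript HOXC-AS2 by 1.17 (adjusted p 0.00138), all by edgeR with n = 3 per group. HOXC10 and HOXC-AS3 were not called, at −0.21 (adjusted p 0.621) and −0.80 (adjusted p 0.339). These genes were chosen after their values were seen.

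Small RNA features annotated inside 1 of the 10 lncRNAs on its strand numbered 27, and 18 of them held exactly 1 count in each of the 6 libraries. Among all features, 363 held exactly 1 count in each library. FAUP4, a pseudogene 9718 bases from NEAT1, fell by 0.85 (adjusted p 0.0326 by edgeR).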
